A study of Homo sapiens with 24 samples.

Results

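The unfolded protein response and the integrated stress response are described here through 44 genes, of 60623 genes listed in the tables, in 4 human lung cancer cell lines. The genes were chosen by name and fall into 4 roles: 10 sensors and transcription factors, 6 feedback and effector genes, 16 genes of protein folding and quality control in the endoplasmic reticulum (ER), and 12 genes of amino acid supply and use. All 44 passed the filter on low values (1 group averaging 10 normalized counts or more) in each of the 4 lines, so no member was set aside.

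The study asked about HEPACAM2, a cell adhesion molecule of the immunoglobulin superfamily, and sequenced RNA from 24 libraries in 8 groups of 3, described as independent biological replicates. A549 and H1299 are non-small cell lung cancer lines, and for each the labels name wild-type control cells and cells that overexpress HEPACAM2. DMS454 and H1694 are small cell lung cancer lines, and for each they name wild-type control cells and cells titled CRISPR, with a HEPACAM2 knockdown genotype. A549, H1299 and H1694 came from ATCC and DMS454 from Sigma, and the labels give neither the vector, its promoter, the guides nor whether the cells were clones or pools. Levels are the deposited normalized counts (reads divided by a size factor for each library), and every difference is the overexpressing or CRISPR-labelled arm minus the control as titled. A gene is called where its adjusted p is under 0.05 in limma on log2(normalized count + 1), with Benjamini-Hochberg adjustment over all genes tested in that line.

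Cells answer an excess of unfolded protein in the ER through the sensors ERN1 (IRE1), ATF6 and EIF2AK3 (PERK). ERN1 splices the XBP1 mRNA so that it encodes an active transcription factor, cleaved ATF6 is itself a transcription factor, and both raise chaperones such as HSPA5 (BiP). EIF2AK3 phosphorylates eIF2, as do other kinases that sense amino acid shortage, haem shortage or double-stranded RNA, and this lowers translation in general while that of ATF4 rises. ATF4 then drives genes for amino acid synthesis, transfer RNA charging and transport, together with DDIT3 (CHOP), TRIB3 and CHAC1. Much of this control, including splicing, cleavage and phosphorylation, does not show in the level of an mRNA, and gene-level values do not separate spliced from unspliced XBP1.

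Some promoters of the members carry response elements that background knowledge ties to these pathways. RefSeq windows from 250 bases before to 50 bases after the start (GRCh38.p14) were found for 39 of the 44 members, without PDIA3, PSPH, SHMT2, ALDH1L2 and SLC7A11, and were searched on both strands. The ER stress element, CCAAT and CCACG with 9 free bases between them, through which ATF6 acts, was present in 7 of 39 members (17.9%) and in 0.0916% of the 27305 genes of the table. Its holders were XBP1 and the folding genes HSPA5, HSP90B1, PDIA6, CALR, CANX and CRELD2. The related ER stress element II, ATTGG and CCACG with 1 free base between them, was present in 3 of 39 members (7.69%) and in 0.0696% of the 27305 genes of the table, namely HERPUD1, HYOU1 and SDF2L1. The unfolded protein response element TGACGTGG was present in 1 member, HYOU1, or 2.56% of members against 0.927% of genes. The C/EBP-ATF response element TGATGNAA, bound by ATF4 with a C/EBP partner, was present in 9 of 39 members (23.1%) and in 4.46% of the 27305 genes of the table: ATF3, CEBPG, PPP1R15B, CHAC1, HERPUD1, ASNS, SLC3A2, SLC1A5 and AARS1. In HYOU1 the unfolded protein response element overlaps an ER stress element II, and no other matches of different motifs overlapped. A match describes the letters of the window and not the binding of a factor. Motifs and members were both chosen from knowledge of these pathways, so the shares are a description and not a test.

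The 250 bases before the start are shown for XBP1 (chr22:28800570-28800819, minus strand), HSPA5 (chr9:125241344-125241593, minus strand), HERPUD1 (chr16:56931892-56932141, plus strand), CHAC1 (chr15:40953221-40953470, plus strand) and ASNS (chr7:97872409-97872658, minus strand). They are chosen because they hold the elements of both pathways beside genes that the results turn on. Each runs 5′ to 3′ on the gene's strand, and the capitals mark the motifs: the ER stress element in XBP1 and HSPA5, the ER stress element II and, before it on the opposite strand, the C/EBP-ATF response element in HERPUD1, and the C/EBP-ATF response element in CHAC1 (opposite strand) and ASNS.
XBP1: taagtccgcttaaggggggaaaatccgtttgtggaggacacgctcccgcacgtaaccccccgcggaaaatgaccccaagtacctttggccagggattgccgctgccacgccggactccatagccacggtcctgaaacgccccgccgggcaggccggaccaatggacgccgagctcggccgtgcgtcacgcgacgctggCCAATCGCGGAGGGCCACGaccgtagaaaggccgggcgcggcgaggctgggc
HSPA5: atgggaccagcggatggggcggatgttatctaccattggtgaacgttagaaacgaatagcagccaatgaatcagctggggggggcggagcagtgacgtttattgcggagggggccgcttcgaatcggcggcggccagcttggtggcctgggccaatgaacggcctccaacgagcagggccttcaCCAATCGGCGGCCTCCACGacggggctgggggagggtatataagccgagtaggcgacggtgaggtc
HERPUD1: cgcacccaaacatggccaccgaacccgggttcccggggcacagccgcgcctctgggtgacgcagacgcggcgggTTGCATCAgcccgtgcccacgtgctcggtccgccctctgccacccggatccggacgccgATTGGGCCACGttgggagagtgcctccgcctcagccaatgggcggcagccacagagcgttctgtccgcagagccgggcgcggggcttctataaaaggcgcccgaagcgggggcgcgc
CHAC1: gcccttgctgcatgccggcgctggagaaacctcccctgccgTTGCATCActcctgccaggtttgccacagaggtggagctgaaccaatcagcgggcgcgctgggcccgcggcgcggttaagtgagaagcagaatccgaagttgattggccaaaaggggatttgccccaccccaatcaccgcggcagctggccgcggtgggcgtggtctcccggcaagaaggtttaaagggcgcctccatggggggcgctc
ASNS: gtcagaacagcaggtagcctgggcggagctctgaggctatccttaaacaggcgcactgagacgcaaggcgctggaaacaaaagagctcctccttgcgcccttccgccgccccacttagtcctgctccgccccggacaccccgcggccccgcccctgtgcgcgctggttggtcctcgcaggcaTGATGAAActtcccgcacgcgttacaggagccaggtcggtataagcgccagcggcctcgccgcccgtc

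Whole reads recovered from the deposited values gave 12704476 to 31770858 reads per library. HEPACAM2 itself stood at 1.10, 0 and 0 in the controls and 6074, 5864 and 6084 with overexpression in A549, and at 3.49, 3.07 and 2.08 in the controls and 27257, 24999.9 and 23710.2 with overexpression in H1299. In DMS454 it was 6430.1, 6543 and 6677 in those labelled control and 11460.0, 11256 and 10844 in the libraries labelled CRISPR, and in H1694 it was 3433, 3551 and 3688 in those labelled control and 10124, 10545 and 10399 in the libraries labelled CRISPR. In both small cell lines the targeted mRNA was therefore higher in the libraries labelled CRISPR, against their knockdown genotype, so directions there are given by label only. The library codes hold G for those labelled control and pL for those labelled CRISPR. Whether the labels of the arms were exchanged cannot be told from the labels and was not tested. Among the neuroendocrine markers looked at, NEUROD1, INSM1 and NCAM1 were measured in DMS454 and H1694. All 3 were at 0 or not listed in A549, while CHGA, CHGB, SYP, DLL3 and UCHL1 of the same list averaged 10 or more. In H1299 INSM1, NCAM1 and the epithelial marker CDH1 were at 0 or not listed, while CHGB, SYP, DLL3 and UCHL1 averaged 10 or more. Of the markers of blood cells, PTPRC and CD3E were at 0 or not listed in A549 and H1299, and CD14 averaged 10 or more in A549. CD14 and the endothelial marker VWF averaged 10 or more in DMS454, and the endothelial markers PECAM1 and CDH5 did in H1694. The summed endothelial markers of H1694 were 3119 to 3188 normalized counts in those labelled control and 3670 to 3806 in the libraries labelled CRISPR. In H1299, control 1 and overexpression 1 stood apart, with median absolute log2 deviations from their own group of 0.213 and 0.209 against 0.136 to 0.148 in the other 4, and the members of H1299 whose call changed are given with and without them.

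**Figure D1:**
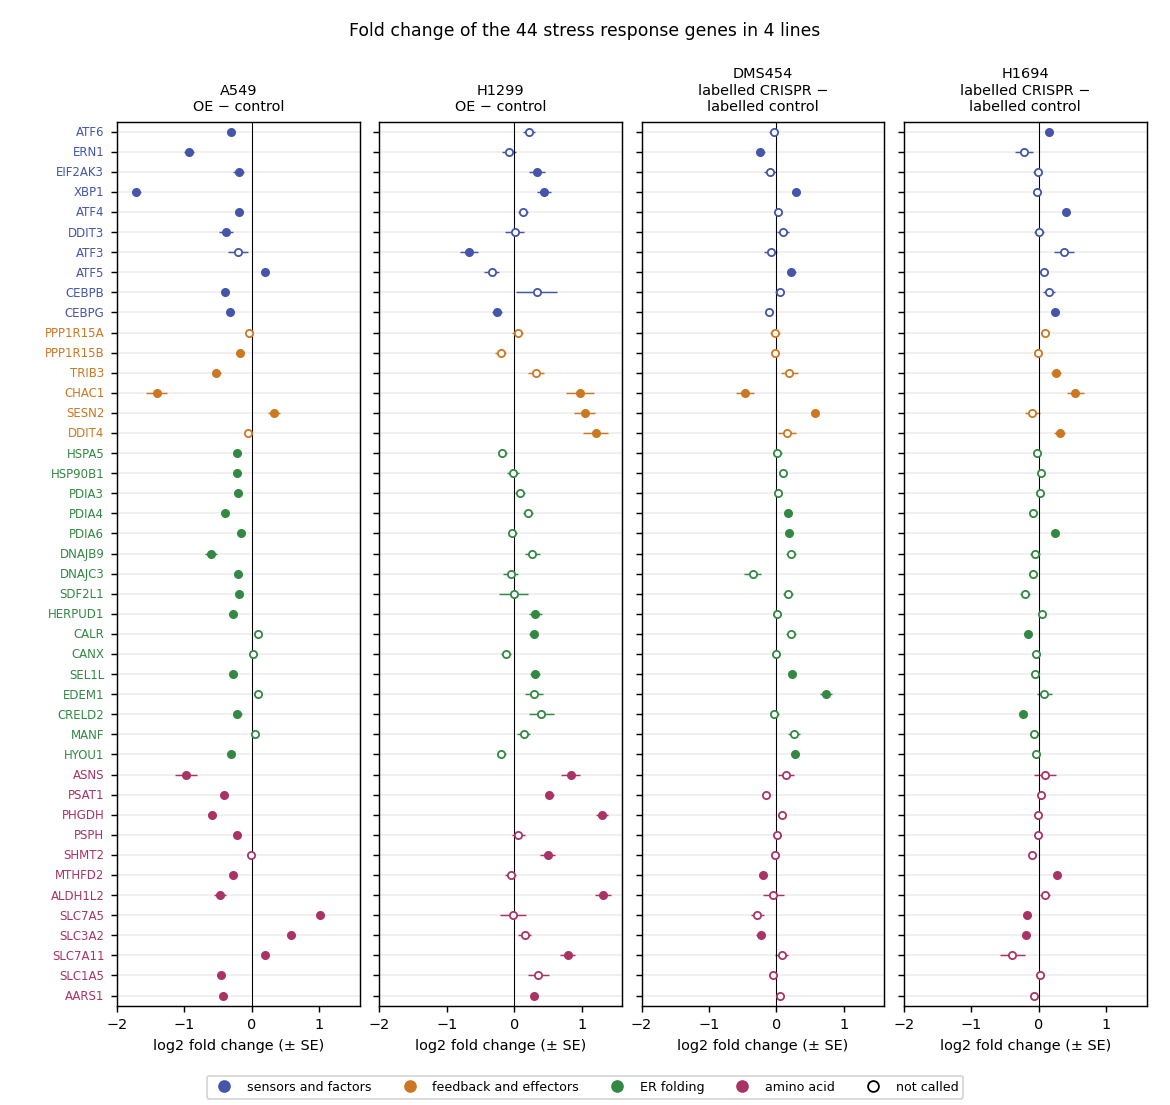
Log2 fold change (overexpressing or CRISPR-labelled minus control, horizontal axis, with its SE as bars) of each of the 44 genes (rows, grouped by role) in the 4 lines (panels); filled symbols passed an adjusted p under 0.05. In A549 most points lie left of 0 and in H1299 most lie right of it, while the points of DMS454 and H1694 lie closer to 0.

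Control cells of all 4 lines expressed the main ER chaperone HSPA5 far above the sensor ERN1. In RPKM computed from the recovered reads and GENCODE exon lengths, a level per length, HSPA5 was 218 ± 8.16 in A549 (SD, n = 3), 181 ± 0.255 in H1299, 165 ± 3.35 in DMS454 and 83.4 ± 0.903 in H1694. ERN1 on the same scale was 2.75 ± 0.0872, 2.02 ± 0.0207, 3.39 ± 0.128 and 0.843 ± 0.179 in that order. Within each line the chaperone mRNA thus stood well above that of the sensor it restrains. XBP1 per length was 56.5 ± 4.98 in A549 and 70.9 ± 0.322 in DMS454, and 12.02 ± 1.17 in H1299 and 11.5 ± 0.623 in H1694, so A549 and DMS454 formed the upper pair and the ranges within each pair were narrow beside the gap. ATF4 was 136 ± 2.25, 109 ± 5.54, 135 ± 2.93 and 125 ± 2.22 in A549, H1299, DMS454 and H1694, a narrower spread across lines than that of XBP1. SLC7A5, the large neutral amino acid transporter LAT1, ran from 348 ± 6.08 in A549 to 25.4 ± 0.941 in H1694. Each line has a table scaled on its own, so these levels were not tested between lines.

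**Figure D2:**
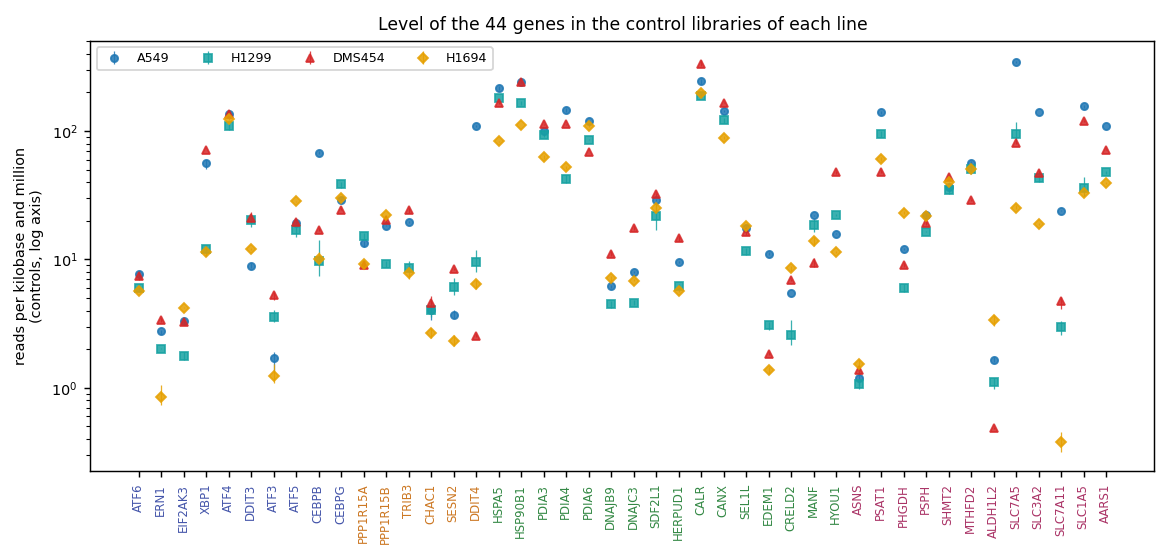
Mean level of the 44 genes in control libraries of each line, in RPKM computed from the recovered reads (log axis), by role; bars span the lowest to the highest control library. Several ER folding genes, HSPA5 among them, and SLC7A5 in A549 lie highest, and ERN1, EIF2AK3, ALDH1L2 and ASNS are among the lowest.

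HEPACAM2 overexpression in A549 went with lower mRNA of most stress response genes. Of the 44 members, 31 fell and 5 rose, where 44.4% of all 16707 genes were called, 21.9% lower and 22.5% higher. The median log2 fold change of the members was -0.22, beside -0.0019 over all genes tested. XBP1 and CHAC1 fell by more than 2-fold and SLC7A5 rose by just over 2-fold, and the other calls were smaller. Mitochondrial reads made up 6.22 to 8.14% of reads in the controls and 5.77 to 6.16% with overexpression, and 5 of 6 epithelial markers fell. The summed blood markers went from 75.9 to 83.4 normalized counts in the controls to 43.5 to 52.1 with overexpression, and CD14 fell. Their part in these results was not tested.

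Among the sensors and factors, 8 of 10 fell and 1 rose. XBP1 was 3494, 3653 and 3038 in the controls and 1074, 1084 and 947 with overexpression (log2 change -1.71, SE 0.069, adjusted p = 1.4e-10). The groups were far apart, a 3.27-fold lower level. ERN1, the enzyme that splices the XBP1 mRNA, was 593, 579.6 and 605 in the controls and 344, 291 and 294 with overexpression (log2 change -0.94, SE 0.074, adjusted p = 6.5e-15), with every overexpressing library below every control. CEBPB, a C/EBP family factor, was 2609, 2619 and 2683 in the controls and 1984, 1856 and 2148 with overexpression (log2 change -0.40, SE 0.044, adjusted p = 1.8e-10). ATF4 was 6759, 6738 and 6815 in the controls and 5993, 5824 and 5913 with overexpression (log2 change -0.20, SE 0.035, adjusted p = 9.5e-06). Its groups did not overlap either, although the shift was small. DDIT3, the death-associated factor CHOP, was 219, 228 and 241 in the controls and 159, 164 and 205 with overexpression (log2 change -0.39, SE 0.11, adjusted p = 0.0023), and overexpression 3 came nearest the controls. ATF6, EIF2AK3 and CEBPG also fell, with log2 fold changes of -0.31, -0.19 and -0.33, while ATF5 rose (0.19) and ATF3 was not called (-0.20, adjusted p = 0.26).

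The feedback and effector genes split, with 3 lower, 1 higher and 2 not called. CHAC1, which degrades glutathione and is a target of ATF4, was 135, 192 and 172 in the controls and 50.9, 58.0 and 78.3 with overexpression (log2 change -1.41, SE 0.15, adjusted p = 3.7e-10). The highest overexpressing library lay well below the lowest control. TRIB3, a pseudokinase induced by ATF4 and DDIT3, was 1336, 1387 and 1315 in the controls and 1015, 816 and 985 with overexpression (log2 change -0.53, SE 0.061, adjusted p = 5.4e-08). SESN2, a leucine sensor that restrains mTORC1, moved the other way, at 239.8, 241 and 274 in the controls and 289, 332 and 327 with overexpression (log2 change 0.33, SE 0.088, adjusted p = 0.0022). Its lowest overexpressing library was above its highest control by a small margin. PPP1R15B, the constitutive partner of the phosphatase that reverses eIF2 phosphorylation, fell (-0.17). Its inducible counterpart PPP1R15A (-0.036, adjusted p = 0.64) and DDIT4, another mTORC1 inhibitor (-0.065, adjusted p = 0.15), were not called.

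No ER folding gene rose in A549 and 12 of 16 fell, with a median log2 fold change of -0.21. DNAJB9, a co-chaperone of HSPA5 and a target of XBP1, was 345, 359.9 and 336 in the controls and 237, 217 and 231 with overexpression (log2 change -0.60, SE 0.086, adjusted p = 8.6e-08). PDIA4, a protein disulfide isomerase, was 9789, 9690.3 and 9181 in the controls and 7205, 7185 and 7308 with overexpression (log2 change -0.40, SE 0.035, adjusted p = 2.5e-13). HYOU1, the nucleotide exchange factor of HSPA5, was 2401, 2492 and 2389 in the controls and 2002, 1913 and 1955 with overexpression (log2 change -0.31, SE 0.041, adjusted p = 2.0e-08). In each of these genes all overexpressing libraries lay below all controls. HSPA5, the main ER chaperone, was 17291, 17170.4 and 16143 in the controls and 14982, 14070.4 and 14367 with overexpression (log2 change -0.22, SE 0.035, adjusted p = 8.0e-07), again without overlap and with a smaller shift. HSP90B1, PDIA3, PDIA6, DNAJC3, SDF2L1, HERPUD1, SEL1L and CRELD2 fell by between 0.16 and 0.28 on the log2 scale. CALR and CANX, the lectin chaperones of the glycoprotein folding cycle, EDEM1 and MANF were not called, with values from 0.017 to 0.10. CALR was close to the threshold (0.083, adjusted p = 0.052), without overlap, and was called higher in 5 of 14 alternatives. Of the A549 calls, 34 of 36 held under every alternative tried other than a size limit on the fold change. EIF2AK3 lost its call without any single library other than overexpression 1 (adjusted p = 0.066 to 0.24), and with TMM scaling (0.051), no filter (0.059) and DESeq2 (0.12). SDF2L1 lost its call without overexpression 2 (adjusted p = 0.062).

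The amino acid genes of A549 moved in both directions, with enzymes mostly lower and transporters mostly higher. SLC7A5 was 31880.1, 33841 and 32672 in the controls and 65665, 63639 and 68773 with overexpression (log2 change 1.01, SE 0.032, adjusted p = 4.1e-29). The groups were far apart. SLC3A2, the heavy chain that brings SLC7A5 and SLC7A11 to the membrane, was 14281, 14798 and 14383 in the controls and 22009.5, 20755 and 22291 with overexpression (log2 change 0.58, SE 0.034, adjusted p = 1.8e-19). The cystine transporter SLC7A11 rose too (0.19), while the glutamine transporter SLC1A5 fell (-0.46). Asparagine synthetase, ASNS, was 92.4, 96.6 and 126 in the controls and 49.7, 47.5 and 61.2 with overexpression (log2 change -0.98, SE 0.17, adjusted p = 3.8e-06). ASNS has named pseudogenes and shares its locus with AC079781.5 on the same strand, and how the authors assigned such reads is not given in the sources used here. PHGDH, the first enzyme of serine synthesis, was 2149, 2269.9 and 2176 in the controls and 1498, 1416 and 1469 with overexpression (log2 change -0.59, SE 0.044, adjusted p = 7.5e-16). The later serine enzymes PSAT1 (-0.41) and PSPH (-0.22), the mitochondrial folate enzymes MTHFD2 (-0.28) and ALDH1L2 (-0.47) and the alanyl-tRNA synthetase AARS1 (-0.42) fell as well. SHMT2 was not called (-0.0086, adjusted p = 0.88). The median of the 12 was -0.34.

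Other genes of the same pathways, listed by name and not by their change, were mostly lower in A549 too. Of 61 further ER folding and unfolded protein response genes tested, 37 fell and 3 rose, where 21.9% of all genes fell and 22.5% rose. CREB3L1, an ER-bound transcription factor, went from 96.3 ± 16.1 to 39.4 ± 5.17 normalized counts (adjusted p = 1.0e-07), the oxidase ERO1B from 711 ± 34.4 to 455 ± 28.0 normalized counts (adjusted p = 1.4e-11) and the retrieval receptor KDELR3 from 297 ± 11.6 to 194 ± 13.5 normalized counts (adjusted p = 3.8e-07). Of 42 further ATF4 and integrated stress response genes, 22 fell and 9 rose. The cysteine-synthesis enzyme CTH went from 225 ± 29.2 to 91.8 ± 4.77 normalized counts (adjusted p = 2.2e-12), the cytokine GDF15 from 2504 ± 84.6 to 1456 ± 71.6 normalized counts (adjusted p = 6.0e-20) and STC2 from 926 ± 66.2 to 584 ± 19.0 normalized counts (adjusted p = 4.1e-13). The eIF2 list did not share this direction, with 4 higher and 1 lower of 14. It holds eIF2 kinases, subunits of eIF2 and eIF2B, and the further genes EIF2A, IMPACT and GCN1, which are neither. EIF2AK4 (GCN2), the kinase that senses uncharged transfer RNA, went from 1006 ± 32.4 to 1270.1 ± 29.5 normalized counts (adjusted p = 1.7e-07), EIF2B1 from 1124 ± 56.4 to 1228 ± 27.9 normalized counts (adjusted p = 0.031) and EIF2S2 from 6628 ± 326 to 5942 ± 151 normalized counts (adjusted p = 6.0e-04).

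**Figure D3:**
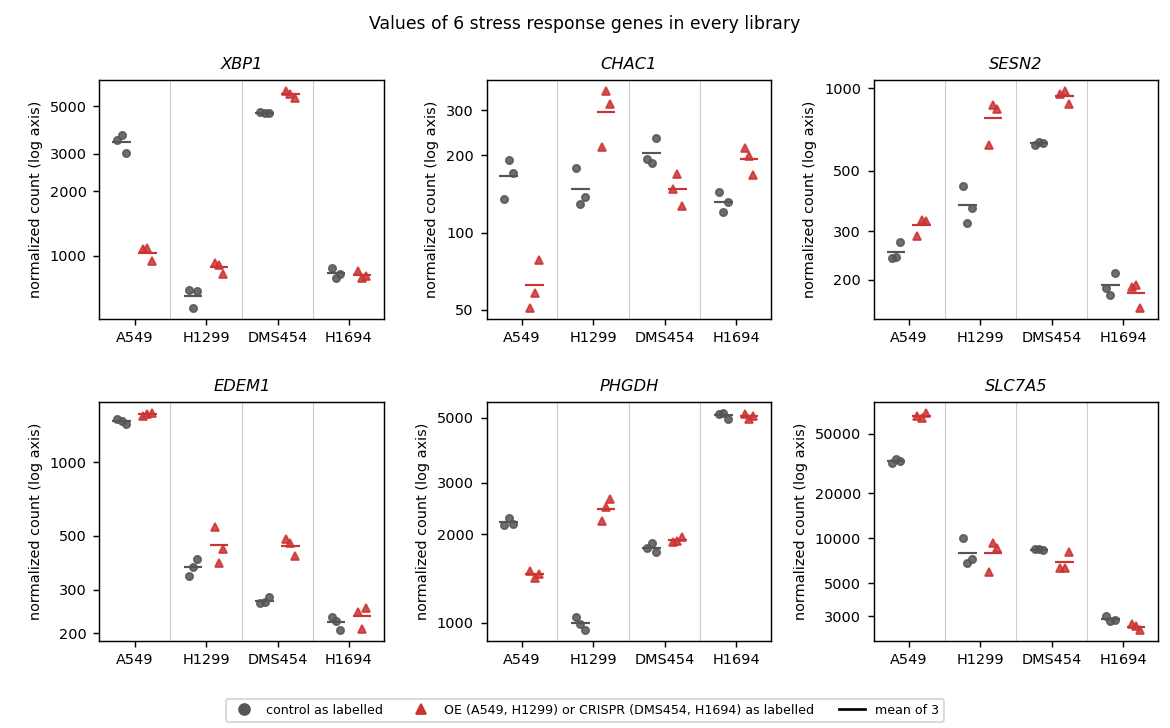
Normalized counts (log axis) of XBP1, CHAC1, SESN2, EDEM1, PHGDH and SLC7A5 in every library of the 4 lines; circles are libraries labelled control, triangles those labelled overexpression or CRISPR, and lines are means of 3. The arms of XBP1 and PHGDH are separate in A549 and H1299, with overexpression below the controls in A549 and above them in H1299.

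The same overexpression in H1299 went with higher mRNA of the amino acid arm. Here 15 members rose, 2 fell and 27 were not called, while 28.8% of 16192 genes were called, 13.5% higher and 15.3% lower. The median over the 44 was 0.22, and that of all genes 0.0018. SESN2, DDIT4, PHGDH and ALDH1L2 rose by 2-fold or more. Without control 1 and overexpression 1, the libraries that stood apart, 25 members rose and 9 fell, while 54.9% of all genes were called, 27.0% higher and 27.9% lower. No member call was lost there. Leaving out the libraries that deviated most narrows the spread within groups, so the adjusted p values of that fit are likely too small. Deviations of control 1 from its group mean correlated with those of overexpression 2 and 3 (0.329 and 0.375) but not overexpression 1 (-0.538). Those of overexpression 1 correlated with those of controls 2 and 3 (0.239 and 0.391). Without the libraries numbered 1 this shared difference lies along the arms, so the fold changes of that fit cannot tell it from overexpression.

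Sensors and factors gave 2 calls in each direction. XBP1 was 695, 572 and 686 in the controls and 930.3, 906 and 819 with overexpression (log2 change 0.45, SE 0.10, adjusted p = 0.011), with no overlap. EIF2AK3 was 185, 169.7 and 162 in the controls and 221, 219 and 214 with overexpression (log2 change 0.34, SE 0.11, adjusted p = 0.049), close to the threshold. ATF3, a stress-induced factor that can repress transcription, was lower, at 242, 231 and 297 in the controls and 175, 154 and 153 with overexpression (log2 change -0.67, SE 0.13, adjusted p = 0.0066). CEBPG, a partner of ATF4, fell as well (-0.25, adjusted p = 0.032). ATF4 was 4589.5, 5049 and 5053 in the controls and 5554, 5352 and 5203 with overexpression (log2 change 0.13, SE 0.071, adjusted p = 0.19) and was not called, although its groups did not overlap. DDIT3 was 414, 476 and 530.4 in the controls and 574, 445 and 415 with overexpression (log2 change 0.0055, SE 0.14, adjusted p = 0.98), with overlapping groups. Without the libraries numbered 1 its value was -0.23 (adjusted p = 0.037), so neither value gives a firm direction. The other factors were not called, at 0.23 for ATF6, 0.33 for CEBPB, -0.079 for ERN1 and -0.33 for ATF5. Without the libraries numbered 1, CEBPB was 0.91 (adjusted p = 2.6e-07) and called.

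Of the feedback and effector genes 3 of 6 rose. DDIT4 was 431, 290.3 and 331 in the controls and 619.9, 913 and 904 with overexpression (log2 change 1.21, SE 0.19, adjusted p = 0.0029). SESN2 was 442, 321 and 366 in the controls and 623, 873 and 844 with overexpression (log2 change 1.05, SE 0.16, adjusted p = 0.002). CHAC1 was 178, 129.8 and 137 in the controls and 215, 357 and 316 with overexpression (log2 change 0.97, SE 0.20, adjusted p = 0.0082). In all 3 genes the groups were separate, and overexpression 1 was the lowest of its group while control 1 was the highest of the controls, so the arms were closest in the libraries numbered 1. Without those libraries the log2 fold changes were 1.55, 1.32 and 1.33. TRIB3, not called with all libraries (0.33, adjusted p = 0.063), then rose (0.50, adjusted p = 1.2e-05), and PPP1R15B, at -0.20 in both fits, then fell (adjusted p = 0.022).

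ER folding genes were mostly not called in H1299, with 3 higher of 16 and a median of 0.11. HERPUD1, which assembles the machinery of ER-associated degradation, was 571, 536 and 601 in the controls and 747, 734 and 641 with overexpression (log2 change 0.31, SE 0.094, adjusted p = 0.036). SEL1L, the adaptor of the degradation ligase, was 1849.8, 2072 and 2062 in the controls and 2523, 2589 and 2302 with overexpression (log2 change 0.31, SE 0.080, adjusted p = 0.02). CALR was 9419.9, 8971 and 9142 in the controls and 10937, 11254 and 11506 with overexpression (log2 change 0.29, SE 0.064, adjusted p = 0.01). These are modest shifts without overlap. HSPA5 was 12512, 12486 and 12881 in the controls and 11837, 11269.7 and 10486 with overexpression (log2 change -0.17, SE 0.071, adjusted p = 0.096) and was not called, with every overexpressing library below the controls. Without the libraries numbered 1, 8 of 16 folding genes rose and 4 fell, where 54.9% of all genes were called. HSPA5 was among those that fell (-0.22, adjusted p = 4.8e-05), with CANX (-0.20), HYOU1 (-0.19) and HSP90B1 (-0.14). The folding genes that gained a call upward were CRELD2, at 0.71 against 0.40 with all libraries, SDF2L1, at 0.38 against -0.0091, DNAJB9, at 0.32 against 0.27, PDIA4, at 0.30 against 0.21, and MANF, at 0.24 against 0.14. Single libraries and the choice of tool also decided calls here. EIF2AK3 was lost with no filter and in edgeR, DESeq2 and limma-voom (adjusted p = 0.054 to 0.091), and CEBPG in DESeq2 (adjusted p = 0.052). Without control 2 the calls of EIF2AK3, CEBPG, HERPUD1, CALR, SEL1L and SHMT2 were lost (adjusted p = 0.052 to 0.13), and without control 3 those of EIF2AK3, CEBPG, HERPUD1, CALR and SEL1L (0.052 to 0.16). Without overexpression 1, 2 or 3 EIF2AK3 was lost each time, with HERPUD1 (0.072 to 0.086), with XBP1, CEBPG, HERPUD1 and SEL1L (0.051 to 0.14) and with CEBPG and CALR (0.055 to 0.12), all adjusted p values.

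Amino acid genes gave the most calls in H1299, 7 of 12 higher and none lower, with a median of 0.43. ALDH1L2, which oxidises formyl-tetrahydrofolate in mitochondria, was 174, 179 and 153 in the controls and 461, 415 and 387 with overexpression (log2 change 1.32, SE 0.12, adjusted p = 1.8e-04). PHGDH was 1044, 991 and 944 in the controls and 2226, 2486 and 2643 with overexpression (log2 change 1.30, SE 0.086, adjusted p = 5.2e-05). ASNS was 76.8, 86.9 and 93.6 in the controls and 152, 154 and 155 with overexpression (log2 change 0.84, SE 0.14, adjusted p = 0.0027). Every overexpressing library of the 3 genes lay far above every control. PSAT1 (0.52), SHMT2 (0.50), SLC7A11 (0.79) and AARS1 (0.30) rose too. SLC7A5, which rose in A549, was 9938, 6789 and 7254 in the controls and 5949, 9235 and 8597 with overexpression (log2 change -0.017, SE 0.19, adjusted p = 0.96). The libraries numbered 1 crossed the others, and without them SLC7A5 was higher (0.34, adjusted p = 5.9e-07), as was SLC3A2 (0.29, against 0.15 with all libraries). PSPH (0.059), MTHFD2 (-0.054) and SLC1A5 (0.36) were not called. Without the libraries numbered 1, SLC1A5 was 0.63 (adjusted p = 2.9e-09) and MTHFD2 was -0.17 (adjusted p = 0.002), and both were called.

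In the wider lists of H1299, 15 of 42 further ATF4 and integrated stress response genes rose and 3 fell. Over all genes 13.5% rose and 15.3% fell. The neutral amino acid transporter SLC1A4 went from 299.8 ± 8.60 to 719 ± 58.6 normalized counts (adjusted p = 9.0e-05), the glycine transporter SLC6A9 from 37.3 ± 4.81 to 93.8 ± 15.3 normalized counts (adjusted p = 0.0017) and the factor JDP2 from 73.3 ± 15.8 to 178 ± 33.0 normalized counts (adjusted p = 0.0027). Of 62 further ER folding genes 12 rose and 4 fell. CREB3L1 went from 242 ± 29.7 to 462 ± 74.7 normalized counts (adjusted p = 0.0022), DERL3 from 61.1 ± 7.08 to 98.5 ± 7.33 normalized counts (adjusted p = 0.014) and the translocon-associated SSR3 from 10631 ± 979 to 6029.5 ± 393 normalized counts (adjusted p = 4.0e-04). In the eIF2 list, 8 of 14 fell and none rose. Its leading genes were EIF2S1, from 6329.8 ± 487 to 4304 ± 344 normalized counts (adjusted p = 0.0021), EIF2A, from 2859 ± 248 to 1939 ± 204 normalized counts (adjusted p = 0.0037), and EIF2B1, from 1404 ± 149.5 to 1017 ± 147 normalized counts (adjusted p = 0.019).

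**Figure D4:**
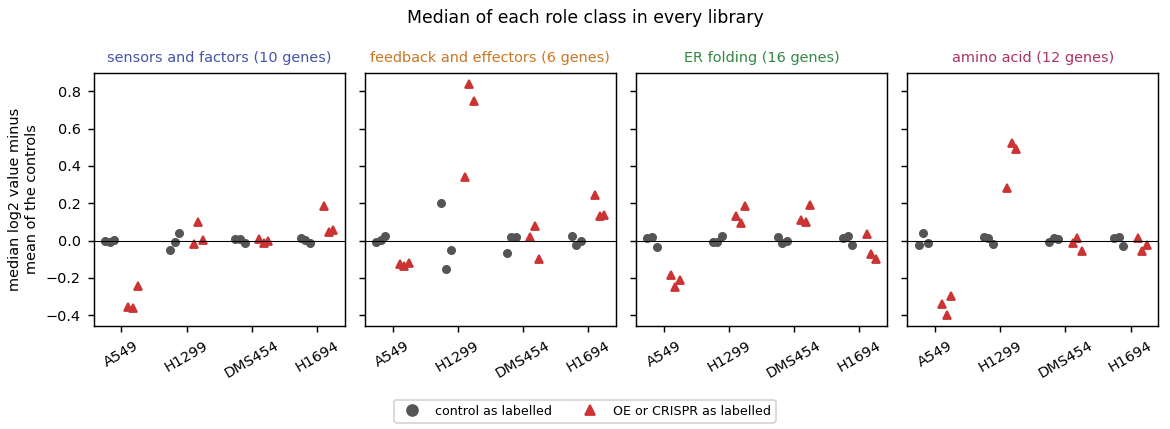
Median over the genes of each role of log2(normalized count + 1) minus the mean of that line's control libraries, for every library of the 4 lines (points by arm). The ER folding and amino acid medians of A549 lie below 0 in all overexpressing libraries, and those of the amino acid genes in H1299 lie above it.

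The difference between the lines was itself tested, as the H1299 change minus the A549 change over the 14578 genes tested in both. Of the 44 members 28 differed, against 41.2% of all genes, and in 25 of the 28 the H1299 value was the greater. Amino acid genes differed in 11 of 12 cases and ER folding genes in 7 of 16. Called lower in A549 and higher in H1299 were 10 members, among them XBP1, which differed by 2.16 (SE 0.13, adjusted p = 5.2e-08), and CHAC1, by 2.38 (SE 0.30, adjusted p = 3.2e-05). The synthesis enzymes stood next: PHGDH by 1.89 (SE 0.094, adjusted p = 1.2e-08) and ASNS by 1.81 (SE 0.22, adjusted p = 1.9e-05). ALDH1L2 differed by 1.79 (SE 0.14, adjusted p = 4.2e-07). The other 5 were EIF2AK3, HERPUD1, SEL1L, PSAT1 and AARS1, with differences from 0.53 to 0.93. The share of all genes called in these opposite directions was not taken. The H1299 calls of XBP1, CHAC1, EIF2AK3, HERPUD1, SEL1L and AARS1 were lost under some alternatives, as was the A549 call of EIF2AK3. The 3 members with the greater value in A549 were SLC7A5, by -1.03 (SE 0.22, adjusted p = 0.0032), SLC3A2, by -0.43 (SE 0.10, adjusted p = 0.0028), and ATF5, by -0.52 (SE 0.12, adjusted p = 0.0038). SESN2 and SLC7A11 rose in both lines and more so in H1299, by 0.72 (SE 0.19, adjusted p = 0.008) and 0.60 (SE 0.11, adjusted p = 5.7e-04). Baseline levels, the amount of HEPACAM2 reached and the lines' other traits cannot be told apart in this comparison.

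**Figure D5:**
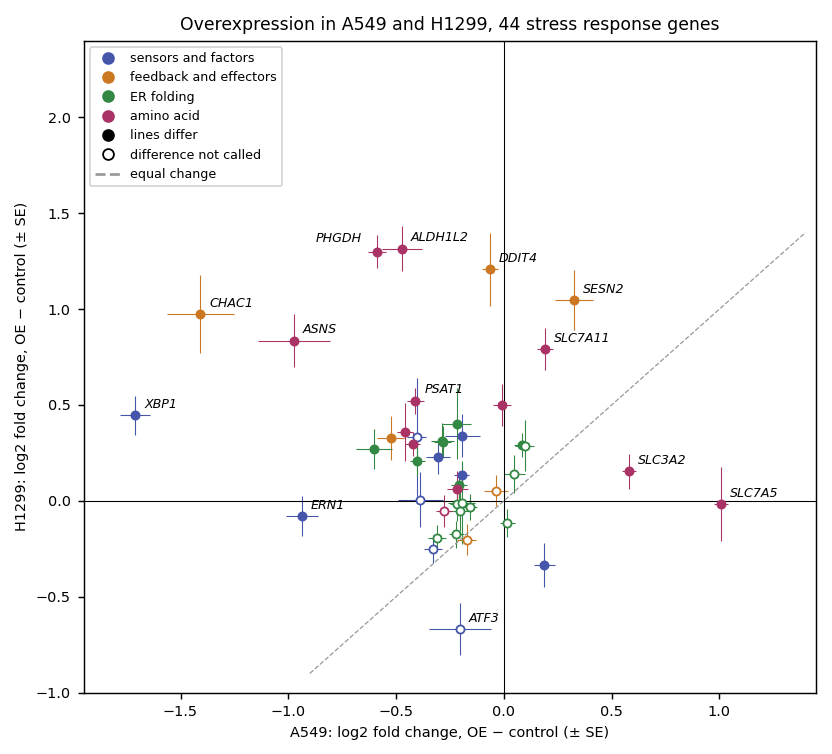
Log2 fold change with overexpression of the 44 genes in A549 (horizontal axis) and H1299 (vertical axis), each with its SE; filled points differ between the lines at an adjusted p under 0.05, and the dashed line marks equal change. XBP1, CHAC1, ASNS, PHGDH and ALDH1L2 lie in the upper left and SLC7A5 and SLC3A2 to the right.

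DMS454 gave 12 member calls, the largest of them in the ER quality control gene EDEM1. In the libraries labelled CRISPR, where HEPACAM2 mRNA was the higher, 8 members were higher and 4 lower, while 18.9% of 18868 genes were called, 9.15% higher and 9.72% lower. No member differed by 2-fold, and the median over the 44 was 0.028. CRISPR 3 stood apart from its group, with a median absolute log2 deviation of 0.165 against 0.103 and 0.119 in the other CRISPR libraries. A fit without it has a narrower spread within that group, so the adjusted p values of that fit are likely too small.

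XBP1 was 4692, 4643 and 4659 in those labelled control and 5898, 5722 and 5477 in the libraries labelled CRISPR (log2 change 0.29, SE 0.041, adjusted p = 5.1e-04), with separate groups. ERN1 was 817, 819 and 768 in those labelled control and 688, 715 and 630.4 in the libraries labelled CRISPR (log2 change -0.24, SE 0.068, adjusted p = 0.025), so the sensor was lower while its substrate mRNA was higher. ATF5, a factor induced with ATF4, was 1259, 1276 and 1219 in those labelled control and 1498, 1582 and 1314 in the libraries labelled CRISPR (log2 change 0.22, SE 0.066, adjusted p = 0.034). ATF4 was 7581, 7341 and 7276 in those labelled control and 7719, 7599 and 7316 in the libraries labelled CRISPR (log2 change 0.028, SE 0.039, adjusted p = 0.67), with overlapping groups. DDIT3 was 544, 571 and 670.2 in those labelled control and 621, 594 and 695 in the libraries labelled CRISPR (log2 change 0.10, SE 0.089, adjusted p = 0.48), and it overlapped as well. ATF6, EIF2AK3, ATF3, CEBPB and CEBPG were not called, with values from -0.11 to 0.050.

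SESN2 was 622, 638 and 629.9 in those labelled control and 951, 979 and 879 in the libraries labelled CRISPR (log2 change 0.57, SE 0.063, adjusted p = 7.7e-05), the clearest of the effectors. CHAC1 was 193, 187 and 234 in those labelled control and 148, 169.9 and 127 in the libraries labelled CRISPR (log2 change -0.46, SE 0.14, adjusted p = 0.032), lower in each library labelled CRISPR. PPP1R15A, PPP1R15B, TRIB3 and DDIT4 were not called (-0.016, -0.020, 0.19 and 0.16). Of the amino acid genes 2 of 12 were lower and none higher, with a median of -0.034. SLC3A2 was 5303, 5209 and 5502 in those labelled control and 4263, 4319 and 5072 in the libraries labelled CRISPR (log2 change -0.23, SE 0.061, adjusted p = 0.02), where CRISPR 3 lay nearest the controls. MTHFD2, a mitochondrial folate enzyme, was 3034, 3136 and 3119 in those labelled control and 2668, 2557 and 2864 in the libraries labelled CRISPR (log2 change -0.20, SE 0.049, adjusted p = 0.013). SLC7A5 showed the same outlying CRISPR 3, at 8387, 8424 and 8256 in those labelled control and 6327, 6311 and 8123 in the libraries labelled CRISPR (log2 change -0.28, SE 0.093, adjusted p = 0.078), and without that library it was lower (-0.40, adjusted p = 4.2e-14). With all libraries SLC7A5 was called lower in DESeq2 (-0.27, adjusted p = 0.0099) and with the replicate block (adjusted p = 0.04). The other 9 were not called, from -0.15 for PSAT1 to 0.15 for ASNS.

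Of 16 ER folding genes 5 were higher and none lower, with a median of 0.18. EDEM1, which trims mannose from misfolded glycoproteins and marks them for degradation, was 265, 268 and 281 in those labelled control and 487, 466 and 412 in the libraries labelled CRISPR (log2 change 0.74, SE 0.089, adjusted p = 1.4e-04). HYOU1 was 7800.0, 8168 and 8041 in those labelled control and 9595, 9293 and 10109.8 in the libraries labelled CRISPR (log2 change 0.27, SE 0.042, adjusted p = 7.8e-04). SEL1L was 3238, 3424 and 3499.7 in those labelled control and 4057, 4085 and 3832 in the libraries labelled CRISPR (log2 change 0.24, SE 0.046, adjusted p = 0.0039). The groups of these genes were separate, and PDIA4 (0.18) and PDIA6 (0.19) were higher by less. HSPA5 was 14276, 14080.4 and 13736 in those labelled control and 13407, 13108 and 16191 in the libraries labelled CRISPR (log2 change 0.014, SE 0.072, adjusted p = 0.91), with CRISPR 3 above and the other CRISPR libraries below the controls. DNAJC3, a co-chaperone and inhibitor of EIF2AK3, was 2206, 2122 and 2052 in those labelled control and 1449, 1535 and 2075 in the libraries labelled CRISPR (log2 change -0.35, SE 0.13, adjusted p = 0.11). CALR, at 0.21, was not called either. DESeq2 with all libraries called DNAJC3 lower (-0.33, adjusted p = 0.012) and CALR higher (0.22, adjusted p = 0.023). Without CRISPR 3, HSPA5 was -0.082 (adjusted p = 0.011), DNAJC3 was -0.51 (adjusted p = 1.1e-11), and the members called went from 8 to 12 higher and from 4 to 10 lower, while 34.9% of all genes were called there, 16.7% higher and 18.2% lower.

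XBP1, SESN2, SEL1L, EDEM1 and HYOU1 kept their calls in DMS454 under every alternative tried other than the size limit, and the other 7 calls each depended on single libraries. ATF5 was also lost in limma-voom (adjusted p = 0.06). Without control 1 the calls of ERN1, ATF5, CHAC1, PDIA4, PDIA6 and SLC3A2 were lost (adjusted p = 0.073 to 0.097). Without control 2 or control 3 MTHFD2 was lost as well (adjusted p = 0.057 to 0.11 and 0.052 to 0.15). Without CRISPR 1 ERN1, ATF5, CHAC1, MTHFD2 and SLC3A2 were lost (adjusted p = 0.059 to 0.12), and without CRISPR 2 ATF5, MTHFD2 and SLC3A2 (adjusted p = 0.061 to 0.14). In the wider lists, 10 of 61 ER folding genes were higher and 8 lower. Of 41 integrated stress response genes 6 were higher and 6 lower, and in the eIF2 list 3 of 14 were higher. Over all genes 9.15% were higher and 9.72% lower. CREB3L1 went from 312 ± 43.6 to 570.5 ± 50.9 normalized counts (adjusted p = 1.7e-04), FKBP14 from 267 ± 18.1 to 349 ± 43.1 normalized counts (adjusted p = 0.025) and the signal peptidase subunit SEC11C from 30831 ± 1287 to 24884 ± 2268 normalized counts (adjusted p = 0.0052). SLC1A4 went from 553 ± 36.4 to 399.7 ± 41.2 normalized counts (adjusted p = 0.0033), the translation repressor EIF4EBP1 from 5640.2 ± 113 to 3921 ± 673 normalized counts (adjusted p = 0.016) and CEBPD from 331 ± 18.4 to 240.5 ± 47.5 normalized counts (adjusted p = 0.02). GCN1, a partner of EIF2AK4, went from 6962 ± 187 to 8038 ± 644 normalized counts (adjusted p = 0.019), EIF2S2 from 4762 ± 45.1 to 5380.1 ± 323 normalized counts (adjusted p = 0.021) and EIF2B1 from 3182 ± 53.9 to 3518 ± 146 normalized counts (adjusted p = 0.041).

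In H1694 the largest differences were in the ATF4 target CHAC1 and in ATF4 itself. Here 8 members were higher in the libraries labelled CRISPR and 4 lower, while 17.6% of 17780 genes were called, 8.73% higher and 8.9% lower. The median over the 44 was -0.0043, and no member differed by 2-fold.

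ATF4 was 7542, 7566 and 7326 in those labelled control and 10237, 9869.6 and 9737 in the libraries labelled CRISPR (log2 change 0.41, SE 0.038, adjusted p = 1.8e-06), a mean 33.0% higher with separate groups. ATF4 has named pseudogenes with which reads could be shared. CEBPG was 3177, 3197 and 3213 in those labelled control and 3746, 3754 and 3789.5 in the libraries labelled CRISPR (log2 change 0.24, SE 0.039, adjusted p = 5.3e-04), with little spread inside either group. ATF6 was 1077, 1079.6 and 1079 in those labelled control and 1255, 1227 and 1136 in the libraries labelled CRISPR (log2 change 0.16, SE 0.053, adjusted p = 0.047), near the threshold. XBP1, which differed between arms in the other lines, was 879, 788 and 827 in those labelled control and 851, 792 and 806 in the libraries labelled CRISPR (log2 change -0.026, SE 0.060, adjusted p = 0.81), with mixed groups. DDIT3 was 374, 381 and 372 in those labelled control and 359, 381 and 386 in the libraries labelled CRISPR (adjusted p = 1) and was mixed as well. ERN1, EIF2AK3, ATF3, ATF5 and CEBPB were not called, at -0.22, -0.017, 0.38, 0.080 and 0.15.

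Of the effectors 3 of 6 were higher. CHAC1 was 143, 120.1 and 132 in those labelled control and 214, 198 and 168 in the libraries labelled CRISPR (log2 change 0.54, SE 0.13, adjusted p = 0.0068). DDIT4 was 288, 339 and 315 in those labelled control and 384, 396 and 389 in the libraries labelled CRISPR (log2 change 0.31, SE 0.083, adjusted p = 0.016). TRIB3 was 724, 632 and 579.7 in those labelled control and 802, 754 and 743 in the libraries labelled CRISPR (log2 change 0.25, SE 0.076, adjusted p = 0.03). The groups of all 3 were separate, by the smallest margin in TRIB3. SESN2 (-0.092), PPP1R15A (0.10) and PPP1R15B (adjusted p = 0.97) were not called. Among the amino acid genes MTHFD2 was 5921, 5948 and 5699.9 in those labelled control and 7360.3, 6879 and 6891 in the libraries labelled CRISPR (log2 change 0.27, SE 0.041, adjusted p = 3.2e-04). The subunits of the LAT1 transporter were lower together: SLC3A2 was 2326, 2276 and 2361 in those labelled control and 2103, 2067 and 1938 in the libraries labelled CRISPR (log2 change -0.19, SE 0.046, adjusted p = 0.0094). SLC7A5 was 2998, 2801 and 2823 in those labelled control and 2653, 2560.3 and 2431 in the libraries labelled CRISPR (log2 change -0.17, SE 0.047, adjusted p = 0.017). The other 9 were not called, and their values ran from -0.39 for SLC7A11 to 0.10 for ALDH1L2.

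Of the ER folding genes 1 was higher and 2 lower, with a median of -0.045. PDIA6 was 10848, 10841 and 10505 in those labelled control and 13052, 12325 and 12747 in the libraries labelled CRISPR (log2 change 0.24, SE 0.038, adjusted p = 3.1e-04). CRELD2, a secreted ER stress protein, was 1008, 1092 and 1088 in those labelled control and 867, 907 and 938 in the libraries labelled CRISPR (log2 change -0.23, SE 0.056, adjusted p = 0.009). CALR was 12978, 12758 and 12549 in those labelled control and 12156, 11116 and 11151 in the libraries labelled CRISPR (log2 change -0.15, SE 0.041, adjusted p = 0.017). The groups of the 3 genes were separate, unlike those of HSPA5, which was 7791, 7859.6 and 7697 in those labelled control and 8052, 7813 and 7098 in the libraries labelled CRISPR (log2 change -0.026, SE 0.046, adjusted p = 0.74). ATF4, CEBPG, CHAC1, PDIA6, MTHFD2 and SLC3A2 kept their calls under every alternative tried other than the size limit. ATF6 was lost with TMM scaling (adjusted p = 0.052), no filter (0.079) and DESeq2 (0.11). The calls of ATF6, DDIT4, CALR and SLC7A5 were lost without control 1 (adjusted p = 0.086 to 0.13), and those of ATF6, TRIB3, CALR and CRELD2 without control 2 (0.06 to 0.13). Without control 3 ATF6 and TRIB3 were lost (0.11 to 0.15), without CRISPR 1 ATF6 (0.085), without CRISPR 2 ATF6, TRIB3, DDIT4, CALR and SLC7A5 (0.063 to 0.16) and without CRISPR 3 CALR and SLC7A5 (0.054 to 0.064), all adjusted p values. Without CRISPR 1 the count of lower members was 8 in place of 4, while 25.3% of all genes were called there, 12.6% higher and 12.6% lower. CRISPR 1 deviated most from its group, with a median absolute log2 deviation of 0.124 against 0.086 and 0.111. A fit without it has a narrower spread within that group, so its adjusted p values are likely too small.

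In the wider lists of H1694, 3 of 61 ER folding genes were higher and 5 lower. Of 41 integrated stress response genes 6 were higher and 6 lower, and in the eIF2 list 3 of 14 were higher. Over all genes 8.73% were higher and 8.9% lower. DERL3 went from 73.4 ± 12.7 to 122 ± 30.3 normalized counts (adjusted p = 0.019), TXNDC5 from 320.1 ± 10.9 to 475 ± 114 normalized counts (adjusted p = 0.04) and DNAJC1 from 739 ± 46.5 to 560.4 ± 38.8 normalized counts (adjusted p = 9.6e-04). SLC43A1 went from 89.5 ± 8.10 to 143 ± 6.18 normalized counts (adjusted p = 0.0022), the autophagy receptor SQSTM1 from 3183 ± 62.5 to 2546 ± 34.6 normalized counts (adjusted p = 5.2e-05) and VLDLR from 555 ± 13.7 to 448 ± 37.7 normalized counts (adjusted p = 0.008). EIF2A went from 1787 ± 27.7 to 2098 ± 1.59 normalized counts (adjusted p = 0.0014), EIF2AK4 from 1393 ± 58.6 to 1588 ± 31.6 normalized counts (adjusted p = 0.014) and EIF2B3 from 1904 ± 66.5 to 2129.8 ± 46.5 normalized counts (adjusted p = 0.022).

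Between the small cell lines, the H1694 difference minus the DMS454 difference was called for 12 of 44 members, against 20.2% of 15460 genes. The H1694 value was the greater for 4, namely CHAC1, by 1.01 (SE 0.20, adjusted p = 0.0019), MTHFD2, by 0.47 (SE 0.064, adjusted p = 1.1e-04), ATF4, by 0.38 (SE 0.051, adjusted p = 8.8e-05), and CEBPG, by 0.34 (SE 0.058, adjusted p = 6.4e-04). CHAC1 and MTHFD2 were called lower in DMS454 and higher in H1694. Their DMS454 calls were lost under some alternatives, and the share of all genes called in these opposite directions was not taken. The DMS454 value was the greater for SESN2, by -0.66 (SE 0.13, adjusted p = 0.002), EDEM1, by -0.66 (SE 0.14, adjusted p = 0.0035), and XBP1, by -0.31 (SE 0.069, adjusted p = 0.0041). The other 5 were the folding genes SDF2L1, CALR, HYOU1, SEL1L and PDIA4, so all 6 ER folding genes that differed had the greater value in DMS454.

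Across the 4 lines 41 members were called at least once and 21 were called in both directions, by label in DMS454 and H1694. Of all genes tested, 44.4% were called in A549, 28.8% in H1299, 18.9% in DMS454 and 17.6% in H1694. The matching counts across lines were not taken over all genes, so these counts of members have no share to be set against. PPP1R15A, CANX and MANF were called in no line with all libraries. CHAC1 was the 1 member called in all 4, with log2 fold changes of -1.41 in A549, 0.97 in H1299, -0.46 in DMS454 and 0.54 in H1694. SESN2 was the 1 member called higher in 3 lines, at 0.33, 1.05 and 0.57, and was -0.092 in H1694. XBP1 had the lowest value of any member in any line, -1.71 in A549, and was higher in H1299 and DMS454 (0.45 and 0.29). Named pseudogenes exist for 9 members and 21 overlap another annotated gene, mostly on the opposite strand, so their counts depend on how shared reads were assigned.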

How the data were processed

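Total RNA libraries (strand-specific, with on-column DNase treatment, per the labels) were processed by the authors with CASAVA, FastQC, Trim Galore, STAR and DESeq2 on hg38, per the submitters' processing notes. The read counter, its strand setting, the annotation and tool versions are not stated in what was used here. Each deposited library value, like the deposited mean, is a signal, counts divided by the authors' size factors. Per the file headers, fold changes with their errors are log2 values, the Wald statistic is a score, and raw and adjusted p-value columns follow. The authors took the libraries titled control as the numerator in DMS454 and H1694, so those signs are opposite to the ones given here.

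Whole reads were recovered from 100% of values within 0.01. Genes averaging 10 normalized counts or more in either arm were tested per line with limma 3.58.1 (trend and robust) in R 4.3.3 on log2(normalized count + 1), with Benjamini-Hochberg adjustment over all genes tested. Differences between lines used a limma interaction contrast. Alternatives were TMM scaling, no filter or a filter of 50, a pseudocount of 5, edgeR 4.0.16, DESeq2 1.42.0 and limma-voom on the recovered reads, a replicate block, a size limit, and leaving out libraries. The limma, edgeR, DESeq2 and limma-voom fits and the limma and edgeR interaction contrasts were checked on data simulated from A549 values. That simulation had the same dispersion for all genes and no outlying library, and the other alternatives were not checked in it. Gene positions and exon lengths are from GENCODE 29 (GRCh38). Values in every library are given for XBP1, ATF4, DDIT3 and HSPA5 and, per line and role, for up to 3 called members with the largest change and a mean of at least 50, and wider lists are named by the same rule. SLC3A2 in A549, SLC7A5 in H1299 and DMS454 and DNAJC3 in DMS454 were added after their values were seen. The members, lists and alternatives were chosen with earlier results of these data known.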

Additional observations from a re-analysis of the deposited data

Results flagged for a closer look

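The change with overexpression differed between A549 and H1299 for 28 of 44 members, by the test of the difference between the lines. Of all genes, 41.2% differed in that test. For 10 members the gene was called lower in A549 and higher in H1299, and the H1299 change exceeded the A549 change on the log2 scale by 2.38 for CHAC1, 2.16 for XBP1, 1.89 for PHGDH, 1.81 for ASNS and 1.79 for ALDH1L2. For PSAT1 it did so by 0.93, for AARS1 by 0.72, for HERPUD1 by 0.60, for SEL1L by 0.59 and for EIF2AK3 by 0.53. The share of all genes called in these opposite directions was not taken. Of these members XBP1, CHAC1, EIF2AK3, HERPUD1, SEL1L and AARS1 lost their H1299 call under some alternatives, and EIF2AK3 its A549 call too.

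The difference between arms differed between DMS454 and H1694 for 12 of 44 members, where 20.2% of all genes differed. CHAC1 and MTHFD2 were lower in DMS454 and higher in H1694 in the libraries labelled CRISPR, with the H1694 value above the DMS454 value by 1.01 and 0.47 on the log2 scale. The DMS454 calls of both were lost under some alternatives, and the share of all genes called in these opposite directions was not taken.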

How the results depend on the processing

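Across the alternatives other than the size limit, 34 of 36 member calls were kept in A549, 7 of 17 in H1299, 5 of 12 in DMS454 and 6 of 12 in H1694, and no called member changed direction. Some uncalled members gained a call with the same sign under some alternative. They were 1 of 8 in A549, 14 of 27 in H1299, 9 of 32 in DMS454 and 6 of 32 in H1694. With a size limit of 1 on the log2 scale in either direction, 1 member was higher and 2 lower in A549, 4 and 0 in H1299, and 0 and 0 in DMS454 and H1694. DESeq2 called 1 member lower in H1299. Without both H1299 libraries numbered 1, 8922 genes were called, 25 members were higher and 9 lower, and the ER folding and amino acid medians were 0.17 and 0.56. DDIT3 was then -0.23 and SLC7A5 0.34. The fold changes of that fit cannot tell overexpression from the difference shared by libraries of both arms.

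Leaving out each library in turn gave 2674 to 5429 called genes in H1299. The range was 1964 to 6605 in DMS454, and for H1694 it was 1835 to 4510. Members called higher and lower ranged over 10 to 20 and 1 to 2 in H1299. They ranged over 5 to 12 and 0 to 10 in DMS454, and over 5 to 8 and 2 to 8 in H1694. The ER folding median ranged over 0.068 to 0.20 in H1299 and 0.11 to 0.20 in DMS454, and the amino acid median over -0.039 to 0.0019 in DMS454 and -0.039 to 0.0031 in H1694. Uncalled genes changed sign: DDIT3 ranged over -0.13 to 0.10 in H1299 and -0.022 to 0.030 in H1694 (0.0092 in edgeR and 0.0032 in limma-voom), SLC7A5 over -0.14 to 0.18 in H1299, HSPA5 over -0.082 to 0.071 in DMS454 and -0.064 to 0.027 in H1694, and XBP1 over -0.064 to 0.015 in H1694. The cause was not tested.

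Same-numbered control and treated libraries had deviations from their group means that correlated at -0.538 to 0.123, so the numbers were not taken as pairs. With the replicate block, H1299 gave 1634 called genes, 7 members higher and 0 lower. The calls of EIF2AK3, XBP1, ATF3, CEBPG, CHAC1, HERPUD1, CALR, SEL1L, SHMT2 and AARS1 were not made there (adjusted p = 0.052 to 0.20), and the block moved no other count of calls by more than 1.5 times. With 3 libraries per group, differences of the size of those not called here could go undetected.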
